A study of Mus musculus with 9 samples.

Results

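The 10 genes described here are the MHC class II pathway genes H2-Ab1, H2-Aa, H2-Eb1, H2-Eb2, Cd74, H2-DMa, H2-DMb1, H2-DMb2 and H2-Oa together with Ciita, the class II transactivator, out of 35288 genes listed in the series. They were chosen with the results known: H2-Ab1 was picked out by its increase over control in these same libraries, and the pathway and Ciita were added around it. Differences of these 10 genes between groups are therefore given as descriptions without a p-value. The question was whether Ciita mRNA was present where H2-Ab1 mRNA was high.

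The libraries come from T15, a Smarcb1-negative murine peripheral T-cell lymphoma (PTCL) cell line, so that all groups share the loss of the endogenous gene. Such lymphomas arise in CD4-Cre Smarcb1 fl/fl mice, in which Cre under the Cd4 promoter deletes this subunit of the SWI/SNF chromatin remodeler in T cells. All 9 libraries come from this 1 cell line. The SAHA group received 1 µM of the histone deacetylase inhibitor SAHA (vorinostat), added more than once over 72 h. The study reports strong apoptosis of T15 at this concentration, with most cells dead. Changes in dying cells, a surviving subset and a response of all cells therefore cannot be told apart in the SAHA group. The Smarcb1-RE group carried a Smarcb1 cDNA in the lentiviral, doxycycline (Dox)-inducible pInducer20 plasmid, was selected with G418 and was given 0.5 µg/µl Dox for 72 h. The control group is untreated T15 in the wording of the study, whereas the labels speak of vehicle-treated and of control-plasmid cells without saying which of these the 3 control libraries were. Effects of transduction, G418, Dox and the choice of a stable clone cannot be told apart from those of Smarcb1. The study established several independent clones, and the sample titles do not say how many of them gave the 3 Smarcb1-RE libraries. Each group has 3 libraries, described as biological replicates, and p-values below measure the spread between these libraries.

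MHC class II molecules are heterodimers of an α and a β chain that present peptides from the endosomal route to CD4+ T cells. In the mouse, H2-Aa and H2-Ab1 encode the α and β chain of the A molecule, H2-Eb1 encodes the β chain of the E molecule, and the reference H-2b haplotype has no functional E α chain gene. The strain behind T15 is not given in the sources used here. Cd74 is the invariant chain that occupies the groove until it is degraded, H2-DM (H2-DMa with H2-DMb1 or H2-DMb2) exchanges its remnant for peptide, and H2-O (H2-Oa with H2-Ob) restrains H2-DM. Ciita is a co-activator without DNA binding of its own, which docks on RFX, CREB and NF-Y bound to the X and Y boxes of class II promoters. It is made by B cells, dendritic cells and macrophages and, after interferon-γ, by many other cells, whereas murine T cells usually make neither Ciita nor class II.

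The promoters of these genes are shown because the X and Y boxes are where Ciita is recruited. RefSeq promoter windows of GRCm38.p6 (250 bases before and 50 bases after an annotated start) were found for 8 of the 12 class II genes considered, which are the 10 above plus H2-Ob and H2-Ea-ps. H2-Ab1, Cd74, Ciita and H2-Ea-ps are named only. Both strands were searched for the X-box core GNAAC followed 15 to 40 bases further on, counted from first base to first base, by the Y-box core ATTGG, a pair of patterns written after the sequences had been seen. Of all 32851 windows, 4.19% held such a pair, and it was found once in each of H2-Aa, H2-Eb1, H2-Eb2, H2-DMb1, H2-Oa and H2-Ob. A match is a description of letters and not a measured binding site. The 150 bases before the start are printed 5′ to 3′ on the strand of the gene, with both cores in capitals, for H2-Aa (chr17:34287824-34287973, minus strand), H2-Eb1 (chr17:34305717-34305866, plus strand), H2-Eb2 (chr17:34325525-34325674, plus strand), H2-DMb1 (chr17:34153041-34153190, plus strand), H2-Oa (chr17:34092229-34092378, plus strand) and H2-Ob (chr17:34238755-34238904, plus strand). H2-DMb2 (chr17:34145099-34145248, plus strand), a near copy of H2-DMb1, is shown beside it because the pair of letters was not found there.
H2-Aa: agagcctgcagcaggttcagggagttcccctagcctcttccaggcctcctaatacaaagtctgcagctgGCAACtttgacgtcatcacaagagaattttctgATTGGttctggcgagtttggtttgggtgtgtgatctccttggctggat
H2-Eb1: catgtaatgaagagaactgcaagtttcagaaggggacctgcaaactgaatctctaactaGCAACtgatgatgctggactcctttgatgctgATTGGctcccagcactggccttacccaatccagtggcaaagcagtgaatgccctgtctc
H2-Eb2: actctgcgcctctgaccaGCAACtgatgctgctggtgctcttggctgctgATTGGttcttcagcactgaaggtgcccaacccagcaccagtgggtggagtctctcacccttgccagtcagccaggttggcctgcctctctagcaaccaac
H2-DMb1: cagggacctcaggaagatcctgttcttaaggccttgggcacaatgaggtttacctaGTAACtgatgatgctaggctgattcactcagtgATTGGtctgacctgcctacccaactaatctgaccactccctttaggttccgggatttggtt
H2-DMb2: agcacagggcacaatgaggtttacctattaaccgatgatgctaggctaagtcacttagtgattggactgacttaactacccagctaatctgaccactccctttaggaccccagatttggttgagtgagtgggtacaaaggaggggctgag
H2-Oa: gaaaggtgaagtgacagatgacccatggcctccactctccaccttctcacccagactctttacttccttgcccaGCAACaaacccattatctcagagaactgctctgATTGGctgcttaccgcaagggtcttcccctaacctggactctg
H2-Ob: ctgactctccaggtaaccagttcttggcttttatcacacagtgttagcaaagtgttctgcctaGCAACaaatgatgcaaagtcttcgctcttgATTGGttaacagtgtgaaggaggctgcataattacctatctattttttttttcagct

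The first base of the X core lay 81 bases before the start in H2-Aa, 91 in H2-Eb1, 132 in H2-Eb2, 94 in H2-DMb1, 76 in H2-Oa and 87 in H2-Ob. The distance from X core to Y core was 33 bases in H2-Aa, H2-DMb1 and H2-Oa, 32 in H2-Eb1 and H2-Eb2, and 30 in H2-Ob. H2-DMa had windows at 2 starts, neither with the pair.

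Each library held between 20900477 and 24941494 estimated counts, and 3 counts, taken as the detection floor, correspond to 0.123 to 0.133 CPM (counts per 1000000 counts of the library, the total being scaled by edgeR's TMM method). Intervals and floors given below cover counting error only. Control replicate 1 stood somewhat apart, with a chi-square per gene of 13.4 and 15 against its replicates, where all other replicate pairs gave 2.12 to 4.69. Smarcb1 had 2, 5 and 8 counts in control, 7, 13 and 3 under SAHA and 151, 147 and 142 in Smarcb1-RE (log2 fold change 4.89, SE 0.36, adjusted p = 6.19e-08, edgeR's quasi-likelihood test, Smarcb1-RE against control). Of the T-cell markers, Cd3d, Cd3e, Cd3g, Cd8a, Cd8b1, Lck, Trac and Zap70 had at least 2207 counts in each library, while Cd2 and Thy1 had at most 6. In bulk RNA, fewer cells that express a gene and less RNA per cell cannot be told apart.

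H2-Ab1, the β chain of the A molecule (chromosome 17, 34257689 to 34269419 in GENCODE M21, GRCm38), was the class II chain gene that differed most from control in SAHA. It had 8, 7 and 11 counts in the control libraries, 250, 336 and 361 under SAHA and 89, 75 and 67 in Smarcb1-RE. The 3 groups did not overlap, with all SAHA libraries above all Smarcb1-RE libraries and these above all control libraries. In CPM, this was 0.363 ± 0.0807 (SD, n = 3) in control, 13.7 ± 2.55 in SAHA and 3.34 ± 0.454 in Smarcb1-RE. The fitted log2 fold change against control was 5.22 (SE 0.22), or 37.3-fold, in SAHA and 3.18 (SE 0.26), or 9.06-fold, in Smarcb1-RE, and SAHA libraries were 4.11-fold above Smarcb1-RE libraries. Without control replicate 1, the log2 values were 5.17 and 3.13.

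H2-Aa, the α chain that pairs with H2-Ab1 (34282744 to 34287823), lay above control in SAHA and overlapped control in Smarcb1-RE. The counts were 3, 7 and 4 in control, 35, 55 and 50 under SAHA and 1, 7 and 4 in Smarcb1-RE. SAHA libraries lay above all others, whereas Smarcb1-RE and control libraries overlapped. The ratio of summed counts against control, scaled by library size, was 10.4 (95% interval 5.98 to 19.5) in SAHA and 0.885 (0.374 to 2.06) in Smarcb1-RE, the latter being 0.548 (0.154 to 1.61) without Smarcb1-RE replicate 2. The fitted log2 value in Smarcb1-RE was -0.17 (SE 0.61), and at 1 to 7 counts per library its sign was set by single libraries: it was 0.28 without Smarcb1-RE replicate 1, 0.22 without control replicate 2 and -0.84 without Smarcb1-RE replicate 2. Per kb of annotated exons, the ratio of H2-Ab1 to H2-Aa levels was 2.75 (95% interval 1.38 to 5.69) in control, 10 (8.37 to 12) in SAHA and 28.5 (16 to 55.9) in Smarcb1-RE, from summed counts. The last ratio rests on 12 H2-Aa counts and was 46.1 (19.4 to 144) without Smarcb1-RE replicate 2. These intervals leave out the spread between libraries. H2-Ab1 was also picked out by its increase over control, which favours a higher ratio in the treated groups. The intervals are therefore not compared between groups. In single control libraries the ratio lay between 1.48 and 4.07. Single SAHA libraries gave 9.04 to 10.7. For Smarcb1-RE the range was 15.8 to 132, the highest value resting on 1 H2-Aa count.

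**Figure D1:**
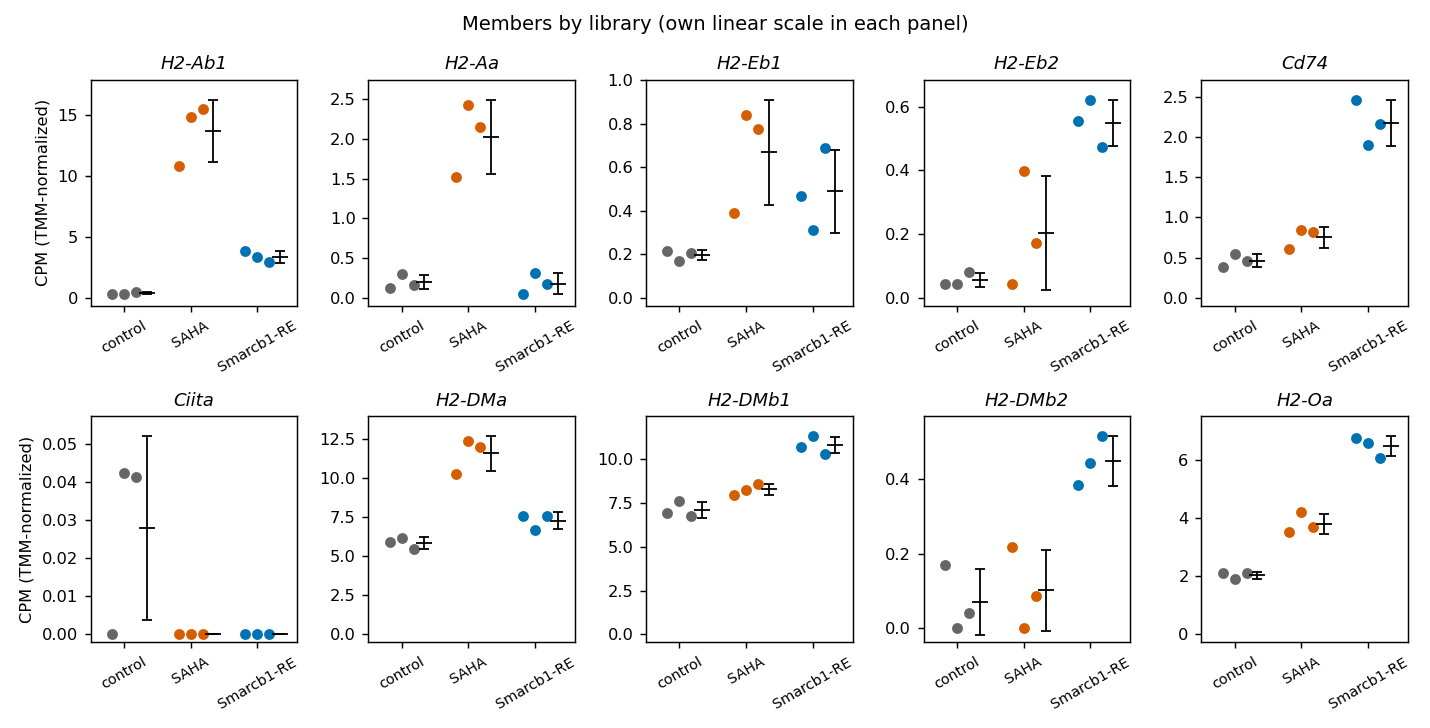
TMM-normalized CPM of each of the 10 genes in the 9 libraries, with 1 point per library and the group mean ± SD (n = 3) in black, each panel on its own linear axis. H2-Ab1 and H2-Aa are highest in SAHA, Cd74, H2-Eb2, H2-DMb1, H2-DMb2 and H2-Oa are highest in Smarcb1-RE, and Ciita lies at 0 in all 6 treated libraries.

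The E chain genes were near the detection floor in control. H2-Eb1, the E β chain (34305867 to 34316674), had 5, 4 and 5 counts in control, 9, 19 and 18 under SAHA and 11, 7 and 16 in Smarcb1-RE. All treated libraries lay above all control libraries, and SAHA and Smarcb1-RE overlapped. The log2 fold changes were 1.74 (SE 0.44) and 1.30 (SE 0.46), and the ratios of summed counts were 3.41 (95% interval 1.84 to 6.71) and 2.51 (1.31 to 5.06).

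H2-Eb2, a related E β-like gene (34325665 to 34341412), showed the opposite preference to H2-Aa. Its counts were 1, 1 and 2 in control, 1, 9 and 4 under SAHA and 13, 14 and 11 in Smarcb1-RE. Smarcb1-RE libraries lay above all others, while SAHA and control libraries overlapped. Since all control libraries were under the floor, the ratio of summed counts is given in place of a fitted value: it was 9.81 (95% interval 3.53 to 37.8) in Smarcb1-RE and 3.63 (1.14 to 15.1) in SAHA, where it was 1.93 (0.415 to 9.73) without SAHA replicate 2. The fitted log2 value in SAHA, 1.77, was 0.88 without SAHA replicate 2 and 2.24 without SAHA replicate 1. H2-Ea-ps, the E α chain locus, had 0 counts in all 9 libraries. Reads that the related E β genes share may have been divided between them in a way the files do not show.

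Cd74, the invariant chain (chromosome 18, 60803848 to 60812652), was highest in Smarcb1-RE. It had 9, 13 and 11 counts in control, 14, 19 and 19 under SAHA and 58, 43 and 50 in Smarcb1-RE. The 3 groups did not overlap, but control and SAHA were separated by 1 count only. The log2 fold change was 2.23 (SE 0.25) in Smarcb1-RE and 0.70 (SE 0.28) in SAHA, so that H2-Ab1 and Cd74 had their highest levels in different groups. Per kb, H2-Ab1 stood at 0.515 times the level of Cd74 in control (95% interval 0.296 to 0.888), at 11.9 times in SAHA (9 to 16.1) and at 1.00 times in Smarcb1-RE (0.811 to 1.24). H2-Ab1 was picked out by its increase over control, which favours a higher ratio in the treated groups. These intervals, which cover counting error only, are therefore not compared between groups. In antigen-presenting cells, Cd74 is made in excess of class II chains.

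H2-DMa and H2-DMb1, which encode the peptide editor, stood above the A and E chain genes in control on the scale of CPM per kb. H2-DMa, the DM α chain (34119541 to 34139101), had 139, 147 and 133 counts in control, 238, 280 and 279 under SAHA and 178, 151 and 176 in Smarcb1-RE. Both treated groups lay above control, with log2 fold changes of 0.98 (SE 0.10) in SAHA and 0.31 (SE 0.11) in Smarcb1-RE. H2-DMb1, the DM β chain (34153072 to 34160230), had 163, 180 and 164 counts in control, 184, 187 and 199 under SAHA and 251, 255 and 240 in Smarcb1-RE. Its order was reversed, with log2 fold changes of 0.22 (SE 0.09) in SAHA and 0.60 (SE 0.08) in Smarcb1-RE. The H2-DMb1 to H2-DMa ratio per kb was 2.48 (95% interval 2.18 to 2.83) in control, 1.47 (1.32 to 1.64) in SAHA and 3.03 (2.7 to 3.4) in Smarcb1-RE.

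H2-DMb2, the other DM β gene (34143307 to 34151555), did not pass the filter on low counts. It had 4, 0 and 1 counts in control, 5, 0 and 2 under SAHA and 9, 10 and 12 in Smarcb1-RE. Smarcb1-RE libraries lay above all others, by a ratio of summed counts of 6.40 (95% interval 2.47 to 21.1) against control. Of the 5 control counts, 4 were in control replicate 1, and without it the ratio was 21.5 (3.58 to 876). Reads of both DM β genes are hard to separate. With their counts added together, the log2 fold change of the sum was 0.22 in SAHA and 0.65 in Smarcb1-RE.

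H2-Oa, the α chain of H2-O (34092340 to 34095234), had 50, 45 and 51 counts in control, 81, 95 and 86 under SAHA and 158, 149 and 141 in Smarcb1-RE. The groups did not overlap, and the log2 fold changes were 0.90 (SE 0.14) and 1.66 (SE 0.13). H2-Ob, its β partner (34238903 to 34254414), was not among the 10 genes and had the reverse order: 1, 1 and 1 counts in control, 19, 29 and 32 under SAHA and 5, 0 and 3 in Smarcb1-RE. SAHA libraries lay above all others, whereas Smarcb1-RE and control overlapped. The ratio of summed H2-Ob counts against control was 27.7 (95% interval 9.13 to 137) in SAHA and 2.75 (0.661 to 16.1) in Smarcb1-RE. The latter was 1.56 (0.209 to 11.7) without Smarcb1-RE replicate 1, and the fitted log2 value ranged from 0.57 without that library to 1.90 without Smarcb1-RE replicate 2. As with the A molecule, one partner of the pair lay above control in both treatments, and the other lay above control in SAHA and overlapped it in Smarcb1-RE.

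Ciita itself (chromosome 16, 10480059 to 10528418) was at or next to 0 throughout. It had 0, 1 and 1 counts in the control libraries, 0, 0 and 0 under SAHA and 0, 0 and 0 in Smarcb1-RE. The 2 counts in 9 libraries were both in control, and no library with high H2-Ab1 had any. With 9.54 kb of exons, all annotated ones merged, Ciita is longer than any chain gene. For it, 3 counts would correspond to at most 0.133 CPM or 0.0139 CPM per kb. The floor per kb would be higher for a transcript shorter than the merged exons. In the same treated libraries, H2-Ab1 stood at 5.35 ± 0.992 CPM per kb (SD, n = 3) in SAHA and at 1.30 ± 0.177 in Smarcb1-RE. The upper bound of the ratio of summed Ciita counts to control was 5.52 in SAHA and 5.50 in Smarcb1-RE, so that a smaller increase from this level was not detectable at this depth. The H2-Ab1 increase was thus measured in libraries without a detected increase of Ciita mRNA. Ciita protein and earlier time points were not analysed here, and an effect of Ciita on H2-Ab1 was not tested.

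**Figure D2:**
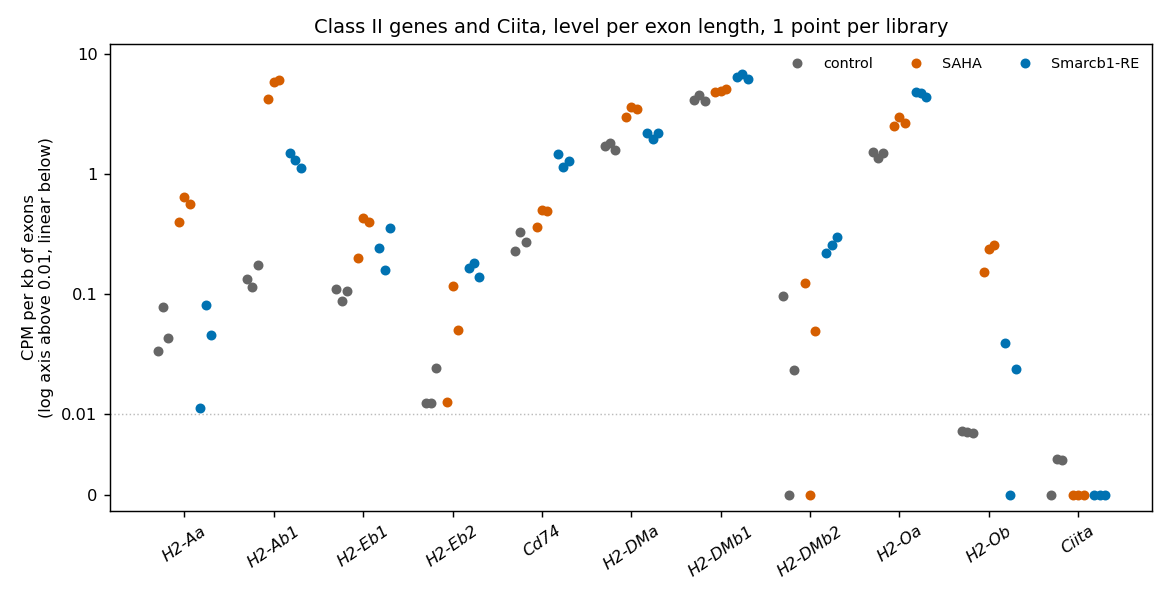
CPM per kb of annotated exons, 1 point per library, for the class II genes and Ciita, on an axis that is logarithmic above 0.01 and linear below it. Ciita is at 0 in the 6 treated libraries while H2-Ab1 lies at 5.35 CPM per kb in SAHA and 1.30 in Smarcb1-RE on average.

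On the scale of CPM per kb, the order of mean levels changed between groups. In control, H2-DMb1 (4.22 ± 0.270, SD, n = 3), H2-DMa (1.7 ± 0.109) and H2-Oa (1.45 ± 0.0866) came first, followed by Cd74 (0.275 ± 0.0499), H2-Ab1 (0.141 ± 0.0314) and H2-Eb1 (0.101 ± 0.012). H2-Ab1 lay above H2-Eb1 in each control library, by ratios per kb of 1.21, 1.32 and 1.67. From summed counts the ratio was 1.41, and its interval for counting error (0.708 to 2.91) included equal levels. The order of H2-Ab1 and H2-Eb1 in control was therefore not settled at these counts. In SAHA, H2-Ab1 (5.35) reached H2-DMb1 (4.92 ± 0.179) within its SD of 0.992, above H2-DMa (3.35 ± 0.320) and H2-Oa (2.70 ± 0.253), while H2-Aa was at 0.535 ± 0.123 and Cd74 at 0.450 ± 0.0768. In Smarcb1-RE, H2-DMb1 (6.41 ± 0.282), H2-Oa (4.6 ± 0.247) and H2-DMa (2.11 ± 0.152) kept the first places, and H2-Ab1 (1.30 ± 0.177) and Cd74 (1.30 ± 0.170) shared the next. Lengths are those of all annotated exons merged, which overstates the length of genes with long rare exons.

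H2-Ab1 also took a different share of the class II reads. Of the counts summed over the 9 genes without Ciita, H2-Ab1 made up 2.09%, 1.73% and 2.88% in the control libraries, 30.6%, 33.6% and 35.5% under SAHA and 11.6%, 10.5% and 9.34% in Smarcb1-RE. The groups did not overlap in this share, which needs no scaling between libraries. H2-Ab1 was picked out by its increase over control, which favours a higher share in the treated groups. Nothing further is therefore read from this separation.

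Of the 10 genes, 8 passed the filter on low counts, and H2-DMb2 and Ciita did not. For other genes, p-values come from edgeR's quasi-likelihood fit, adjusted over all 13697 genes tested and called under 0.05. No calls are given for these 8, which were chosen on the same contrasts. Over all tested genes, 32.6% were called higher and 34.3% lower in SAHA against control. In Smarcb1-RE against control, 39.2% were higher and 38.6% lower, and in Smarcb1-RE against SAHA, 37.7% were higher and 36.8% lower. The median log2 fold change of the 8 genes was 1.36, 1.48 and -0.03 in the 3 comparisons, against 0.00, 0.01 and 0.02 over all genes tested. The list was assembled around these contrasts, so nothing is read from its medians. With library totals, not TMM factors, the median log2 fold change over all genes was 0.17 in Smarcb1-RE against control and 0.18 against SAHA. The calls over all genes then became 6476 higher and 4141 lower in place of 5371 and 5282 against control.

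Among tested genes outside the 10, with a mean log2 CPM of at least 0, those with a pair of log2 fold changes (SAHA and Smarcb1-RE, each against control) closest to that of H2-Ab1 were Rgs11, a regulator of G-protein signaling (4.96 and 3.22, Euclidean distance 0.259), Btn1a1, a butyrophilin (4.97 and 3.71, distance 0.588), Bahcc1 (5.83 and 3.10, distance 0.616), Igfbp5, an insulin-like growth factor binding protein (4.54 and 2.72, distance 0.816), and Snph (4.16 and 3.14, distance 1.06). The likeness rests on 3 group means from 9 libraries that both comparisons partly share. Rgs11 lies on chromosome 17 as well, at 26202951 to 26211324, the others on chromosomes 13, 11, 1 and 2. Their mean control levels were between 0.0558 CPM (Bahcc1) and 0.391 CPM (Btn1a1), where H2-Ab1 was at 0.363 CPM. Rgs11, Bahcc1 and Snph were under the floor of 3 counts there on average, so that their values rest on few control counts. Ciita was not tested, so that no genes could be ranked by likeness to it.

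The factors that hold Ciita at class II promoters, listed here together with the Ciita relative Nlrc5, were expressed in all groups. This list and the gene lists further down were chosen with earlier results of these data known. Nothing is therefore read from their counts of calls, and the p-values of their genes are descriptive. Of 8 genes (the RFX subunits Rfx5, Rfxap and Rfxank, the NF-Y subunits Nfya, Nfyb and Nfyc, Creb1, and the Ciita relative Nlrc5), 2 rose and 3 fell in SAHA, 3 rose and 3 fell in Smarcb1-RE, and 6 were higher and 1 was lower in Smarcb1-RE than in SAHA. Over all tested genes, 32.6% rose and 34.3% fell in SAHA, 39.2% and 38.6% in Smarcb1-RE, and 37.7% were higher and 36.8% lower in Smarcb1-RE than in SAHA. With library totals only, 5 were higher and 2 lower in Smarcb1-RE than in control. The median log2 fold changes were 0.02, 0.05 and 0.53. Rfx5, the large RFX subunit, had 671, 693 and 743 counts in control, 722, 732 and 705 under SAHA and 1860, 1768 and 1845 in Smarcb1-RE. It rose in Smarcb1-RE (log2 fold change 1.42, SE 0.04, adjusted p = 3.25e-11, edgeR), whereas the difference in SAHA was 0.09 (SE 0.05, adjusted p = 0.112). Rfxank, an RFX subunit too, rose in Smarcb1-RE (0.60, SE 0.09, adjusted p = 4.46e-05, edgeR) and did not pass the test in SAHA (0.17, SE 0.09, adjusted p = 0.127).

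Rfxap, the remaining RFX subunit, fell in both treatments (log2 fold changes -0.62 and -0.39, adjusted p = 1.12e-05 and 3.57e-04, edgeR). Nlrc5, which drives MHC class I genes from the same promoter module, had 2815, 2898 and 3253 counts in control, 4037, 4369 and 4373 under SAHA and 8483, 8233 and 8585 in Smarcb1-RE. The groups did not overlap, and Nlrc5 rose in both treatments (log2 fold changes 0.56 and 1.54, SE 0.05 each, adjusted p = 7.73e-07 and 5.46e-11, edgeR). Nfya rose in SAHA (0.40, adjusted p = 1.42e-04) and fell in Smarcb1-RE (-0.42, adjusted p = 9.26e-05), and Nfyb (-0.57, adjusted p = 1.83e-06) and Nfyc (-0.79, adjusted p = 2.46e-08) fell in SAHA. In Smarcb1-RE, Nfyc differed by -0.13 (adjusted p = 0.0189), and by 0.03 with library totals only. Creb1 passed the test in none of the 3 comparisons.

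**Figure D3:**
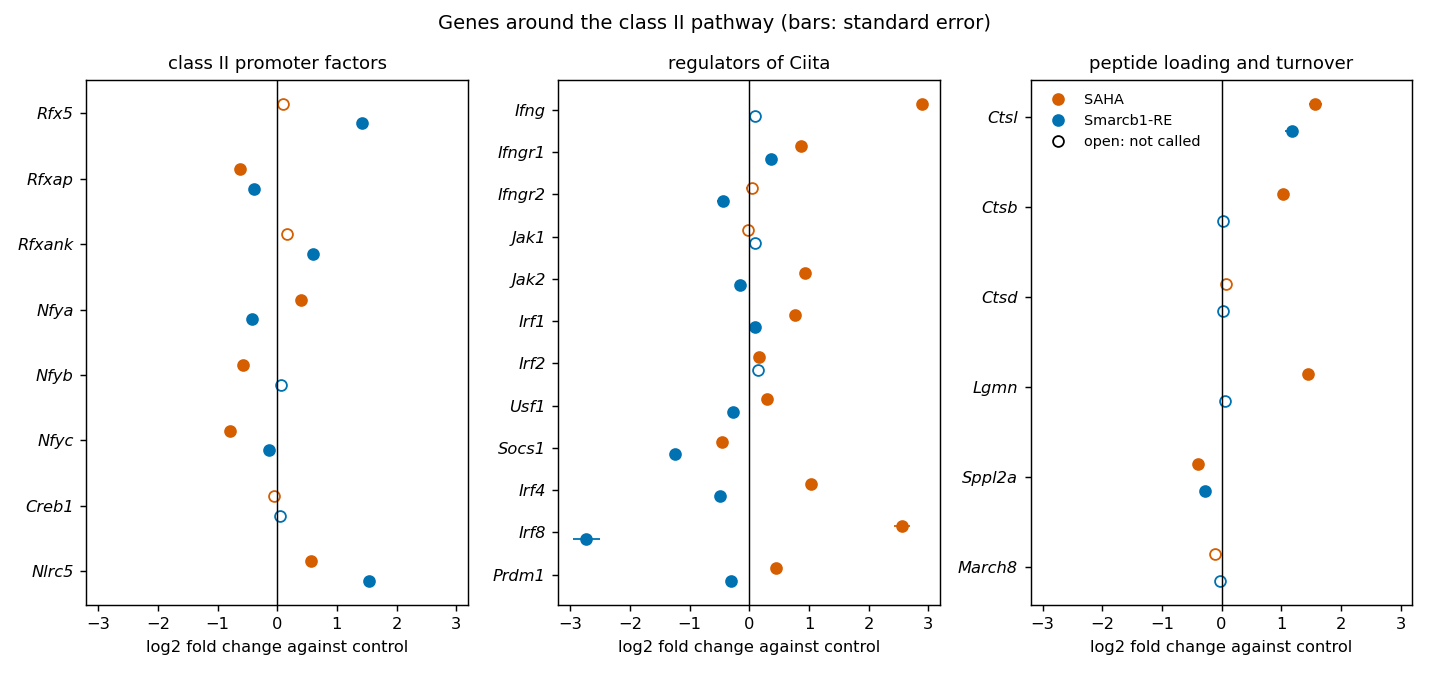
Log2 fold change against control with its standard error, for tested genes of 3 lists, SAHA in orange and Smarcb1-RE in blue, with open points for genes not called at an adjusted p-value under 0.05. Ifng (2.90) and Irf8 (2.56) are the highest regulators of Ciita in SAHA, where Irf8 is the lowest in Smarcb1-RE (-2.73), and Rfx5 (1.42) and Nlrc5 (1.54) are the highest promoter factors in Smarcb1-RE.

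Of 14 genes known to act upstream of Ciita, 13 were tested. This list too was chosen with earlier results known, so its counts of calls are a description. In SAHA, 10 rose and 1 fell (median 0.44), where 32.6% and 34.3% of all genes did. In Smarcb1-RE, 2 rose and 8 fell (median -0.27), where 39.2% and 38.6% of all genes did, and with library totals only the counts were 5 and 6. Of the same 13 genes, 1 was higher and 11 were lower in Smarcb1-RE than in SAHA (median -0.67), where 37.7% and 36.8% of all genes were.

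Ifng, the cytokine that switches on Ciita in non-professional cells, had 604, 527 and 539 counts in control, 3827, 4149 and 4061 under SAHA and 586, 538 and 614 in Smarcb1-RE. SAHA libraries lay far above the others, which overlapped (log2 fold change 2.90, SE 0.06, adjusted p = 5.37e-11 in SAHA and 0.10, SE 0.07, adjusted p = 0.199 in Smarcb1-RE, edgeR). Without control replicate 1, Ifng was called higher in Smarcb1-RE as well, by 0.17. Jak2, the kinase at the interferon-γ receptor, rose in SAHA (0.94, SE 0.04, adjusted p = 5.37e-09, edgeR) and differed by -0.15 in Smarcb1-RE (SE 0.05, adjusted p = 0.0102, against 0.01 with library totals only). Its partner Jak1 differed by -0.02 in SAHA (adjusted p = 0.692) and by 0.09 in Smarcb1-RE (adjusted p = 0.0591, edgeR).

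The receptor chain Ifngr1 rose in both treatments (0.86 and 0.37, adjusted p = 7.01e-07 and 8.06e-04, edgeR), and Ifngr2 fell in Smarcb1-RE (-0.45, adjusted p = 0.00146). Irf1, which binds the interferon-inducible Ciita promoter, rose in SAHA by 0.76 (adjusted p = 8.22e-09, edgeR), and its increase of 0.09 in Smarcb1-RE (adjusted p = 0.0424) fell short of the threshold under most alternatives. Usf1, a further factor at that promoter, rose in SAHA (0.29, adjusted p = 9.19e-05) and fell in Smarcb1-RE (-0.27, adjusted p = 1.50e-04). Irf2, which binds the same element as Irf1, rose in SAHA by 0.17 (adjusted p = 0.0334), a call lost under several alternatives, and differed by 0.14 in Smarcb1-RE (adjusted p = 0.0732).

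Socs1, the feedback inhibitor of JAK signaling, fell in both treatments (-0.46 and -1.24, adjusted p = 4.29e-04 and 6.29e-08, edgeR). Irf8, a factor of the dendritic-cell and B-cell Ciita promoters, had 63, 78 and 73 counts in control, 334, 439 and 447 under SAHA and 8, 12 and 11 in Smarcb1-RE. It moved in opposite directions (2.56, SE 0.14, adjusted p = 1.27e-08 in SAHA and -2.73, SE 0.23, adjusted p = 2.45e-07 in Smarcb1-RE, edgeR). Irf4 (1.04 and -0.50, adjusted p = 7.04e-09 and 1.55e-06) and Prdm1, a repressor of Ciita in plasma cells (0.44 and -0.30, adjusted p = 4.16e-05 and 9.03e-04), did so too. Spi1, a factor of the myeloid Ciita promoter, had at most 1 count per library. Ciita had 0 counts in all SAHA libraries, where Ifng, Jak2, Irf1, Irf4 and Irf8 were all higher than in control, as was the repressor Prdm1. An effect of any of these genes on Ciita was not tested.

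Genes that load class II or turn it over were mixed. Of 9 listed, 6 were tested, Ctss and March1 were under the filter and Ifi30 was not analysed here. In SAHA 3 rose and 1 fell, in Smarcb1-RE 1 rose and 1 fell, and 1 was higher and 3 were lower in Smarcb1-RE than in SAHA, with medians of 0.56, 0.03 and -0.22. The shares over all tested genes were 32.6% and 34.3%, 39.2% and 38.6%, and 37.7% and 36.8%. With library totals only, the counts in Smarcb1-RE were 5 higher and 1 lower than in control, and 2 higher and 2 lower than in SAHA. Ctsl, a protease that cleaves the invariant chain, had 204, 155 and 183 counts in control, 442, 572 and 533 under SAHA and 392, 389 and 407 in Smarcb1-RE and rose in both treatments (1.57 and 1.18, SE 0.11 each, adjusted p = 1.13e-07 and 8.68e-07, edgeR). Ctss, the protease that professional antigen-presenting cells use for this step, had 3, 0 and 0 counts in control, none under SAHA and 0, 0 and 1 in Smarcb1-RE. The lysosomal proteases Lgmn (1.45, adjusted p = 2.67e-09) and Ctsb (1.03, adjusted p = 6.00e-09, edgeR) rose in SAHA. Their differences in Smarcb1-RE, 0.05 and 0.02, did not pass the test (adjusted p = 0.503 and 0.765). Sppl2a, which clears the remaining invariant chain fragment from the membrane, fell in both treatments (-0.40 and -0.28, adjusted p = 6.02e-06 and 7.92e-05, edgeR). The ubiquitin ligase March1, which removes class II from the surface, had 0 counts in all libraries, and its relative March8 differed by -0.11 and -0.02 (adjusted p = 0.115 and 0.81).

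Of the 10 genes, 8 lie on chromosome 17, between 34092340 (the start of H2-Oa) and 34341412 (the end of H2-Eb2). Within 300 kb of H2-Ab1 the annotation has 40 genes, of which 30 are not class II genes. Of these 30, 13 were tested, and 7 were higher and 4 lower in SAHA, 7 higher and 4 lower in Smarcb1-RE, and 7 higher and 3 lower in Smarcb1-RE than in SAHA. Over all tested genes these shares were 32.6% and 34.3%, 39.2% and 38.6%, and 37.7% and 36.8%. The median log2 fold changes of the 13 were 0.18, 0.29 and 0.16. The closest tested ones are the class I antigen processing genes between H2-DMb1 and H2-Ob. There Psmb9 differed by -0.10 in SAHA and 0.01 in Smarcb1-RE, Tap1 by -0.14 and 0.29, Psmb8 by -0.30 and -0.15 and Tap2 by 0.03 and -0.35. H2-Ab1, further along the same stretch, differed by 5.22 and 3.18. Of the class II genes closer to it, H2-Ob differed by 4.62 and 1.35 and H2-Aa by 3.34 and -0.17, both from few control counts.

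Past an absolute log2 fold change of 1, only H2-Ke6, H2-K2 and Btnl7-ps were called among the 13. H2-Ke6, an enzyme gene of the class I end, had 779, 586 and 554 counts in control, 1259, 1342 and 1446 under SAHA and 1348, 1406 and 1456 in Smarcb1-RE. Control replicate 1 was highest among the controls. H2-Ke6 rose in both treatments (1.13 and 1.18, SE 0.11 each, adjusted p = 1.19e-06 and 3.91e-07, edgeR). The pseudogene H2-K2 rose by 1.85 in Smarcb1-RE (SE 0.14, adjusted p = 6.64e-08, edgeR), where reads could have been divided with H2-K1. The butyrophilin-like pseudogene Btnl7-ps had 1, 0 and 0 counts in control, 6, 3 and 3 under SAHA and 18, 20 and 25 in Smarcb1-RE.

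**Figure D4:**
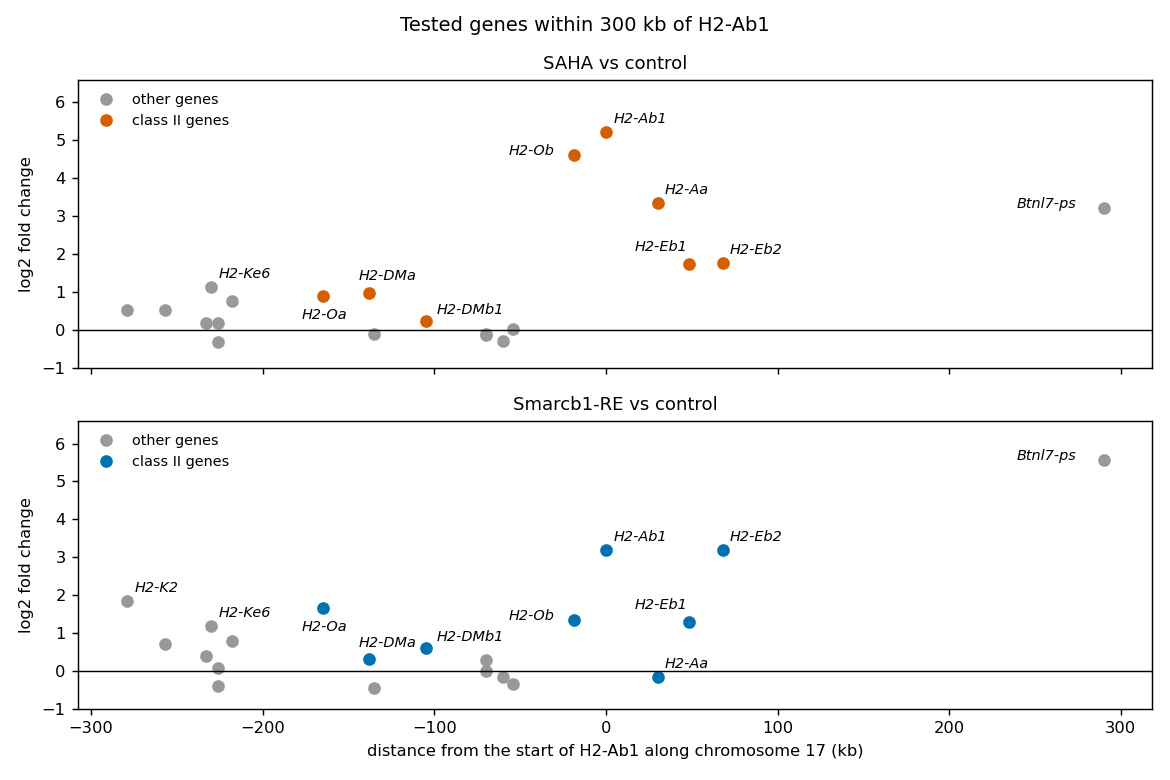
Log2 fold change against control of the tested genes within 300 kb of H2-Ab1, by the distance of their start from that of H2-Ab1, with class II genes in color and other genes in gray. In SAHA the 4 tested non-class-II genes closest to H2-Ab1 lie between -0.30 and 0.03, whereas H2-Ab1 is at 5.22, and the values of Btnl7-ps and H2-Ob rest on 1 and 3 counts in all control libraries together.

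Markers of professional antigen-presenting cells were read in the same libraries, because such cells express class II genes. Of 8 B-cell markers, 5 were tested, with 3 called higher in SAHA and 5 in Smarcb1-RE (edgeR), where 32.6% and 39.2% of all tested genes were higher. Their summed level was 93.2 to 96.7 CPM in control, 104 to 114 in SAHA and 156 to 165 in Smarcb1-RE, most of it Ebf1. Cd79a and Cd79b, the signaling chains of the B-cell receptor, had at most 4 per library. Pax5, the B-lineage factor, had 0, 6 and 1 counts in control, 22, 11 and 20 under SAHA and 89, 92 and 88 in Smarcb1-RE. Ms4a1 had 20, 17 and 22 counts in control, 18, 16 and 19 under SAHA and 79, 85 and 79 in Smarcb1-RE, and Blnk had 3, 3 and 5, 7, 5 and 5, and 13, 9 and 14. Cr2, a complement receptor, had 5, 15 and 19 counts in control, 47, 50 and 52 under SAHA and 32, 34 and 46 in Smarcb1-RE. Pax5, Ms4a1, Ebf1 and Blnk were thus highest in Smarcb1-RE, and Cr2 was highest in SAHA, as H2-Ab1 was.

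Of 8 dendritic-cell markers, 3 were tested, with 2 called higher in SAHA and 2 higher and 1 lower in Smarcb1-RE (edgeR), where 32.6% of all tested genes were higher in SAHA and 39.2% higher and 38.6% lower in Smarcb1-RE. The sum was 55.4 to 62.5 CPM in control, 85.3 to 87.6 in SAHA and 13.8 to 15.2 in Smarcb1-RE, most of it Ccr7, which T cells also express. Clec9a had 0 counts throughout, and Itgax and Flt3 had at most 3 per library. Zbtb46, a factor of classical dendritic cells, had 10, 6 and 3 counts in control, 67, 84 and 82 under SAHA and 24, 24 and 32 in Smarcb1-RE, the same order of groups as H2-Ab1. Xcr1, a receptor of cross-presenting dendritic cells, had 7, 2 and 9 counts in control, 12, 14 and 6 under SAHA and 15, 19 and 14 in Smarcb1-RE. Batf3, a factor of the same cells, had 1, 0 and 1, 2, 1 and 3, and 7, 4 and 7 counts, so that both had their highest mean in Smarcb1-RE. Siglech had at most 3 counts per library.

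Of 8 macrophage and monocyte markers, 1 was tested, Cd68, a lysosomal protein, which rose in SAHA (1.99, SE 0.16, adjusted p = 3.83e-07, edgeR). The sum was 1.73 to 2.1 CPM in control, 5.72 to 7.36 in SAHA and 1.72 to 1.83 in Smarcb1-RE. Fcgr1 and C1qa had 0 counts throughout, and Csf1r, Adgre1, Cd14 and Lyz2 had at most 4 per library. Of the 10 T-cell markers, 8 were tested, with 3 higher and 3 lower in SAHA and 2 higher and 4 lower in Smarcb1-RE, where the shares over all tested genes were 32.6% and 34.3%, and 39.2% and 38.6%. The sum over the T-cell list was 3082 to 3172, 3527 to 3582 and 3103 to 3169 CPM in control, SAHA and Smarcb1-RE. The part of cells expressing any of these markers in the class II values was not tested.

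Of 3 costimulatory genes that accompany class II on antigen-presenting cells, 2 were tested, with 1 called higher in SAHA and 2 in Smarcb1-RE, where 32.6% and 39.2% of all tested genes were higher. Cd86, a ligand of Cd28, had 529, 510 and 557 counts in control, 800, 820 and 866 under SAHA and 3030, 2891 and 2876 in Smarcb1-RE, and it rose in both treatments (0.69 and 2.51, SE 0.05 each, adjusted p = 9.96e-08 and 5.96e-13, edgeR). Cd40 rose in Smarcb1-RE (1.02, SE 0.28, adjusted p = 0.0054), where it had 23, 24 and 22 counts against 14, 11 and 10 in control and differed by -0.61 in SAHA (adjusted p = 0.148, edgeR). Cd80 had at most 13 counts per library and was not tested. The sum of all 3 was 22.1 to 23.6 CPM in control, 35.3 to 38 in SAHA and 125 to 130 in Smarcb1-RE.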

How the data were processed

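Total RNA of 9 T15 cultures was sequenced from directional libraries. The values are estimated counts per Ensembl gene as the authors deposited them: the submitters' processing notes name Salmon 0.14.1 for quantification and GRCm38, beside FastQC 0.11.8, MultiQC 1.7 and DESeq2 1.22.2, and the annotation release is not given in the sources used here. Of the nonzero values, 52.4% were not whole (tolerance 0.0005), since reads shared by related transcripts are divided in proportion to an estimate, which concerns the H2-Eb, H2-DMb and H2-K genes.

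Counts were rounded, genes filtered with filterByExpr (minimum count 10) and 13697 genes fitted over all 9 libraries with edgeR 4.0.16 (R 4.3.3, limma 3.58.1), using TMM factors and the quasi-likelihood test, with Benjamini-Hochberg adjustment over all genes and a threshold of 0.05. The common biological coefficient of variation was 5.24%. The procedure was tested on simulated data. CPM are TMM-scaled, and levels per kb use merged exons of GENCODE M21, which held 35028 of the table's gene IDs (99.3%). Count ratios carry exact 95% intervals.

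The 10 genes and all lists (class II promoter factors, regulators of Ciita, peptide loading and turnover, and markers of B cells, dendritic cells, macrophages and monocytes, T cells and costimulation) were chosen with earlier results of these data known. Named were members of these lists (3 of them are counted but not reported here by name), H2-Ob, H2-Ea-ps, Smarcb1, genes within 300 kb of H2-Ab1 called with an absolute log2 fold change of at least 1, and the 5 genes nearest to H2-Ab1 in their pair of log2 fold changes. Psmb9, Tap1, Psmb8 and Tap2 were named after their values were seen. Alternatives were DESeq2 1.42.0, RLE factors, library totals, no filter, separate fits, a replicate block, rounding down, H2-DMb1 and H2-DMb2 summed, and each library left out. Ifi30 was not analysed here.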

Additional observations from a re-analysis of the deposited data

How the results depend on the processing

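The log2 fold changes of the 8 fitted class II genes moved by more than the spread between replicates in 26 of their alternative values and stayed within it in 378; Ciita and H2-DMb2 were not fitted. H2-Ab1 ranged from 5.09 to 5.41 in SAHA and from 3.04 to 3.36 in Smarcb1-RE with each library left out. Replicate numbers did not pair the libraries: the correlation of same-numbered libraries ranged from -0.10 to 0.06, and 1 of 9 correlated best with its own number. With the replicate block, H2-Ab1 was at 5.21 and 3.19 and Smarcb1 at 4.90.

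For the other named genes, 1354 alternative values kept direction and call, 19 became significant, 43 lost significance and 11 changed direction; for counts and Smarcb1, 393 stayed and 32 moved by over 1.5 times. The cause was not tested. With library totals only, 5 promoter factors (main value 3), 5 regulators of Ciita (2) and 5 loading genes (1) were higher in Smarcb1-RE than in control, and 2 loading genes (1) were higher than in SAHA. Regulators of Ciita higher in Smarcb1-RE than in control numbered 1 with RLE factors, with no filter and with separate fits, and 1 to 3 with a library left out, the call of Irf1 being lost in 8 such fits and, without control replicate 1, that of Ifng gained. Regulators of Ciita higher than in SAHA, 1 (Jak1), numbered 0 with no filter and 0 to 1 with a library left out. Loading genes higher than in SAHA, 1 (Sppl2a), numbered 0 with DESeq2, RLE factors, no filter or the replicate block, and 0 to 1 with a library left out. Loading genes lower in SAHA than in control, 1, ranged from 1 to 2, the 2 without control replicate 1.

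Of the fitted class II genes, H2-Aa changed sign in Smarcb1-RE against control, with -0.84 to 0.28 when a library was left out. Among the other named genes, values that changed sign were small. Library totals gave Nfyc 0.03, Jak2 0.01 and March8 0.14 in Smarcb1-RE against control, and Irf2 0.12 and Ctsd 0.11 against SAHA. Leaving out 1 library gave ranges across 0 in Smarcb1-RE against control for Creb1 (-0.01 to 0.06, lowest without control replicate 1), March8 (-0.06 to 0.02, highest without control replicate 2) and Lgmn (-0.01 to 0.10, lowest without Smarcb1-RE replicate 1). It gave -0.06 to 0.00 for Jak1 in SAHA (highest without control replicate 2) and -0.07 to 0.00 for Irf2 in Smarcb1-RE against SAHA (highest without SAHA replicate 3). Ctsb was -0.01 in Smarcb1-RE with no filter. In Smarcb1-RE against SAHA, library totals gave 6441 genes higher and 3924 lower over all genes, in place of 5170 and 5042. Separate fits gave no value for genes under the filter in a pair of groups. Leaving out libraries for the ratios of summed counts was added after seeing the data. Depth limits Ciita, H2-DMb2, H2-Eb2 and H2-Ob, which were near 3 counts in control. It also limits H2-Aa (3, 7 and 4 counts in control) and H2-Eb1 (5, 4 and 5).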
